A study of Homo sapiens with 24 samples.

Results

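The genes described here are the 8 RAS and MAPK feedback genes *DUSP6*, *DUSP4*, *DUSP5*, *ETV5*, *SPRY1*, *SPRED1*, *SPRED2* and *EGR1*, which ERK signalling induces and most of which act back on it. They were chosen by symbol, with no measured value in the rule, and all 8 were found among the 15862 genes of the authors' expression table. Polyadenylated RNA was measured by RNA sequencing in 24 libraries of 2 established human T-cell acute lymphoblastic leukaemia lines, each a single line. LOUCY stands for early T-cell precursor leukaemia, and JURKAT for a later stage of T-cell development. Each line gave 6 untreated libraries. A further 12 came from LOUCY cells cultured for 24 h, in groups of 4, with DMSO (0.05%), JQ1 (250 nM) or I-BET151 (500 nM). DMSO is the solvent control, and JQ1 and I-BET151 are inhibitors of BET proteins, the readers of acetylated histones that help to drive transcription. JURKAT was not treated in the libraries analysed here. All groups were split evenly over 2 independent experiments. The labels do not say whether the numbered libraries of an experiment were separate cultures, so p-values reflect only how far these libraries spread, which may be technical.

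In the RAS pathway, active RAS recruits RAF kinases, which activate MEK, which in turn phosphorylates ERK, and ERK then switches on a set of early genes. Several of these genes encode brakes. The DUSP proteins remove the activating phosphates from ERK and its relatives, and the SPRY and SPRED proteins act further up, at the receptors, RAS and RAF. In developing T cells the same pathway carries signals of the T-cell receptor and its precursor, and transcripts such as *DUSP6* and *ETV5* are widely used as a read-out of ERK output. RNA alone was measured here. ERK activity was not analysed here.

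On GRCh38, with the GENCODE annotation, the phosphatase gene *DUSP6* lies on chromosome 12 from 89347232 to 89353271 on the minus strand and *DUSP5* on chromosome 10 from 110497838 to 110511544 on the plus strand. The transcription factor gene *ETV5* spans chromosome 3 from 186046308 to 186110318 on the minus strand, and *EGR1* spans chromosome 5 from 138465490 to 138469315 on the plus strand. The inhibitor genes are *SPRY1* on chromosome 4 from 123396795 to 123403760 (plus), *SPRED1* on chromosome 15 from 38252326 to 38357249 (plus) and *SPRED2* on chromosome 2 from 65310851 to 65432637 (minus). The library method does not mark strand, so reads of *DUSP6* and of its antisense neighbour AC024909.2, and of *ETV5* and its antisense RNA *ETV5-AS1*, cannot be told apart. *DGKG*, which overlaps *ETV5* on the same strand, reached at most 0.704 RPKM in any library.

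Promoter sequence from RefSeq (GRCh38.p14) was matched for 5 of the 8 genes, in 7 windows of 250 bases upstream of a transcript start, and *DUSP4*, *DUSP5* and *ETV5* had no match. The windows shown belong to *SPRY1*, a member of the feedback genes higher in LOUCY than in JURKAT, and *EGR1*, a member of those lower. Capitals mark matches, on either strand, to CCGGAAG (a site of ETS factors), the CArG box (a site of the serum response factor), TGACG (part of a site of CREB factors) or CCAAT.
SPRY1, chr4:123396545-123396794, plus strand: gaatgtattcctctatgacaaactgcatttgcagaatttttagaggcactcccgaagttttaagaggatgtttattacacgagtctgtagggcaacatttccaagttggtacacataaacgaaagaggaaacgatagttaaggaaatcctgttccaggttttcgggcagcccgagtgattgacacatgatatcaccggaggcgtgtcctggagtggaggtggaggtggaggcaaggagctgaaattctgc
EGR1, chr5:138465229-138465478, plus strand: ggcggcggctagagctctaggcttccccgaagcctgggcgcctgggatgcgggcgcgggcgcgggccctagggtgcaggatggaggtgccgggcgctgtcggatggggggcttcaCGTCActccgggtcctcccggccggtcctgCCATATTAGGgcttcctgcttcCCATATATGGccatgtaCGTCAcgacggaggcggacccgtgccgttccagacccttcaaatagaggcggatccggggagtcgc

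The *EGR1* window held 2 CArG boxes, beginning 105 and 83 bases upstream of the start, between 2 TGACG matches that begin 135 and 66 bases upstream and read as CGTCA on the plus strand. A CArG box was present in 1.16% of 35116 promoters of the same length, and TGACG in 21.2%. The *SPRY1* window shown held none of the 4 motifs, and the window of its second start held 1 CCGGAAG, 67 bases upstream, a motif found in 8.52% of promoters. CCAAT, found in 32% of promoters, occurred once in the *DUSP6* window, 46 bases upstream, and at 162 and 119 bases upstream of the second start of *SPRED2*. The windows of *DUSP6*, of *SPRED1* and of the second starts of *SPRY1* and *SPRED2* lie inside the annotated genes. The window of the first *SPRED2* start reaches partly into its gene. Of the 7 windows, 4 overlap an annotated exon, among them those of *DUSP6* and of the second *SPRY1* start. These matches describe the letters in the windows and are not evidence of binding.

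Levels are the authors' RPKM, reads scaled to gene length and to library size. Levels of different genes can be compared only roughly, as the gene lengths used were not given. Libraries held 4381134 to 7074198 reads in listed genes. Of 7 T-lineage markers, 5 averaged 1 RPKM or more in LOUCY (not CD5 or CD2) and 7 did in JURKAT. *HHEX*, *LYL1* and *MYCN* did so in LOUCY only, and *TAL1* in JURKAT only. *CD28*, listed as a JURKAT marker, went the other way, at 2.98 ± 0.746 RPKM in untreated LOUCY and 0.704 ± 0.267 in JURKAT (SD, n = 6 each). Each of the monocyte, erythroid, fibroblast and epithelial marker lists summed to at most 2.23 RPKM in any library. *CD14*, *HBA1*, *HBB* and *EPCAM* of those lists were not analysed here, which leaves 2 monocyte, 1 erythroid and 1 epithelial gene, while the B-lineage gene *CD79A* exceeded 1 RPKM in both lines. The level of a gene fell more steeply with its GC content in 3 libraries, which were I-BET151 replicate 1, DMSO replicate 1 and untreated LOUCY replicate 2 of experiment 2 (slopes of -0.313, -0.281 and -0.227 log2 per 10 percentage points of GC, against -0.125 to 0.155 in the other 21). Without those 3 libraries no feedback gene gained or lost a call in any of the 5 comparisons. Differences are limma estimates on log2(RPKM + 1), a scale that understates changes of genes near or below 1 RPKM, with a standard error (SE) and a p adjusted by Benjamini-Hochberg over all genes tested. A gene was called at an adjusted p under 0.05.

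*DUSP6*, the cytoplasmic phosphatase that acts on ERK with little action on other MAP kinases, was among the most abundant feedback genes in untreated LOUCY and was lower in every other group. Untreated LOUCY read 15.8, 16.6 and 17.1 RPKM in experiment 1 and 21.6, 25.8 and 23.6 RPKM in experiment 2. The DMSO libraries read 6.64 and 7.37 RPKM in experiment 1, and 7.07 and 7.87 RPKM in experiment 2. Every DMSO library was therefore below every untreated library, and the DMSO mean was 36.0% of the untreated mean. The JQ1 libraries read 3.44, 3.05, 2.36 and 4.69 RPKM. The I-BET151 libraries read 4.09, 5.24, 5.12 and 3.09 RPKM, again all below the DMSO libraries. JURKAT ranged from 3.03 to 4.81 RPKM with a mean of 3.97 ± 0.567 (SD, n = 6). In order of mean level, untreated LOUCY (20.1 ± 4.17 RPKM, SD, n = 6) stood above DMSO (7.24 ± 0.516, n = 4), and I-BET151 (4.39 ± 1.0, n = 4), JURKAT and JQ1 (3.39 ± 0.978, n = 4) overlapped at the bottom.

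*DUSP5*, the nuclear phosphatase of the same family that acts on ERK, was low in all groups and lowest in JURKAT. Untreated LOUCY ranged from 0.528 to 1.53 RPKM and averaged 1.16 ± 0.357 (SD, n = 6). DMSO averaged 1.19 ± 0.341 RPKM, JQ1 1.56 ± 0.477 and I-BET151 1.87 ± 0.853 (SD, n = 4 each). The 4 LOUCY groups overlapped throughout, with the highest single library, 3.0 RPKM, in I-BET151. JURKAT ranged from 0.0796 to 0.606 RPKM and averaged 0.356 ± 0.196 (SD, n = 6), on 29 reads in all, and its upper end overlapped the lower end of the untreated LOUCY range. *DUSP4*, the nuclear phosphatase of ERK and other MAP kinases, stayed between 0 and 0.384 RPKM in every library. It never reached the 1 RPKM needed for a test, and 134 reads in all 24 libraries carried its values. In the untreated LOUCY library with a *DUSP4* value of 0, the level that 3 reads would give is the limit, which lay between 0.061 and 0.0898 RPKM across libraries.

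*ETV5*, an ETS-family transcription factor of the PEA3 group and an ERK target, followed an order like that of *DUSP6*, with the inhibitor groups lowest. Untreated LOUCY read 12.3, 11.4 and 12.9 RPKM in experiment 1 and 15.6, 15.9 and 18.1 RPKM in experiment 2. DMSO read 7.44, 8.27, 6.91 and 6.74 RPKM, and its mean was 51.1% of the untreated mean. No DMSO library reached the lowest untreated library. JQ1 read 1.47, 1.54, 2.09 and 1.37 RPKM. I-BET151 read 2.99, 2.29, 1.72 and 2.76 RPKM. Both inhibitor groups lay below all JURKAT libraries, which ranged from 4.4 to 7.02 RPKM, while DMSO and JURKAT overlapped.

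*EGR1*, a zinc-finger factor of the immediate early response, was the transcription factor of the set with the opposite pattern between the lines. JURKAT read 4.96, 6.71 and 5.71 RPKM in experiment 1 and 3.15, 2.52 and 4.5 RPKM in experiment 2. Untreated LOUCY ranged from 0.14 to 1.4 RPKM, all below the lowest JURKAT library. DMSO ranged from 0.0618 to 0.381 RPKM, JQ1 from 0.124 to 1.17 RPKM and I-BET151 from 0.263 to 1.37 RPKM, so the 4 LOUCY groups overlapped. These LOUCY values rest on few reads, 73 over the 6 untreated libraries and 19 over the 4 DMSO libraries, and 3 reads are worth 0.143 to 0.21 RPKM of *EGR1*.

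*SPRY1*, a Sprouty protein that blocks the step from receptors to RAS and RAF, had an RPKM like that of *DUSP6* in untreated LOUCY. Its DMSO libraries, however, lay within the untreated range. Untreated LOUCY read 25.1, 22.3 and 21.8 RPKM in experiment 1 and 18.5, 18 and 13.3 RPKM in experiment 2. DMSO read 21.8, 21.3, 19.5 and 21.1 RPKM. JQ1 read 8.57, 9.53, 9.27 and 10.7 RPKM, and I-BET151 read 7.28, 8.68, 7.02 and 7.38 RPKM. All 8 inhibitor libraries were below all 10 untreated and DMSO libraries, and JQ1 and I-BET151 overlapped in a single narrow stretch. JURKAT lay lowest, from 0.73 to 1.96 RPKM, so its mean of 1.54 ± 0.468 RPKM (SD, n = 6) was exceeded 12.9-fold by the untreated LOUCY mean.

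*SPRED1*, which brings the RAS inactivator neurofibromin to the membrane, was near absent from LOUCY. Over the 18 LOUCY libraries it stayed between 0.0252 and 0.261 RPKM, while 3 reads are worth 0.0617 to 0.0909 RPKM. JURKAT read 2.62, 4.98 and 1.97 RPKM in experiment 1 and 2.35, 2.45 and 2.67 RPKM in experiment 2. *SPRED2*, its relative with the same domain layout, was present in every group and highest in JURKAT, where it ranged from 8.41 to 10.3 RPKM. Untreated LOUCY read 3.98, 3.97, 4.3, 4.34, 4.33 and 4.55 RPKM. DMSO read 3.52, 3.09, 2.37 and 3.05 RPKM, all below the untreated libraries. JQ1 averaged 2.75 ± 0.462 RPKM and I-BET151 3.02 ± 0.558 RPKM (SD, n = 4 each), and both overlapped DMSO.

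**Figure D1:**
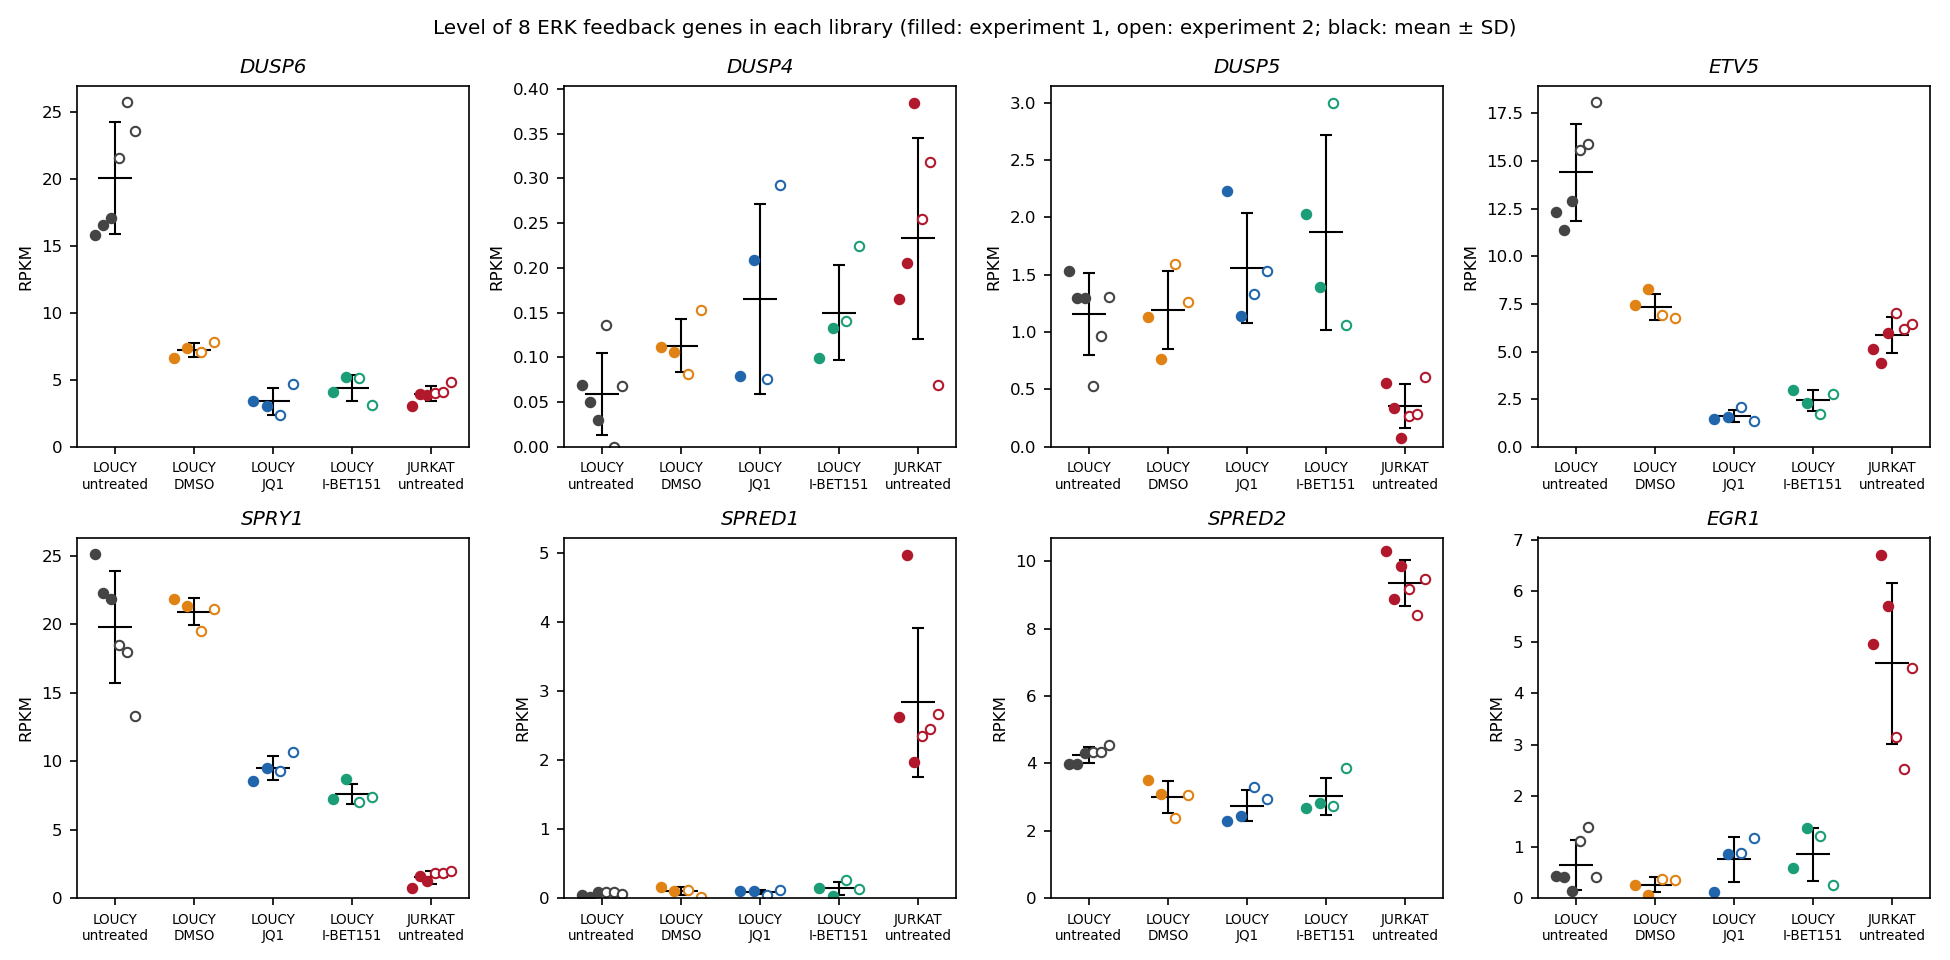
Level of each of the 8 feedback genes (y axis, RPKM, one linear scale per gene) in each of the 24 libraries by group (x axis), with filled points for experiment 1, open points for experiment 2, and black bars for the mean ± SD. *DUSP6* and *ETV5* step down from untreated LOUCY to DMSO to the inhibitors, *SPRY1* steps down at the inhibitors, and *SPRED1*, *SPRED2* and *EGR1* are highest in JURKAT.

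Between the untreated lines, 4 feedback genes were higher in LOUCY and 3 were higher in JURKAT. *SPRY1* was higher in LOUCY by 3.03 (SE 0.158) on the log2 scale with a limma adjusted p of 1.06e-10, followed by *DUSP6* at 2.07 (SE 0.0919; adjusted p = 1.57e-11). *ETV5* was higher in LOUCY by 1.16 (SE 0.0856; adjusted p = 7.23e-09) and *DUSP5* by 0.66 (SE 0.129; adjusted p = 0.000272). *SPRED1* was lower in LOUCY, with a log2 difference of -1.81 (SE 0.136; adjusted p = 9.22e-09), as were *EGR1* at -1.76 (SE 0.211; adjusted p = 1.96e-06) and *SPRED2* at -0.98 (SE 0.0789; adjusted p = 2.05e-08). The filter on low values was passed by 7 of the 8 feedback genes and not by *DUSP4*. *SPRED1* and *EGR1* passed it through JURKAT alone and *DUSP5* through LOUCY alone, so a difference of these 3 was in part fixed by the filter. The count of 7 called is therefore no support for the set, the more so as 73.1% of the 11978 genes tested were called between the lines (35.5% higher and 37.5% lower in LOUCY). Because of the added 1 RPKM, the *SPRED1*, *EGR1* and *DUSP5* differences are compressed. On recovered read counts, with limma-voom, they were -5.23, -2.94 and 1.61, where the median of all genes was -0.12 instead of -0.02. On that scale the *SPRED1* difference was larger in size than that of *SPRY1* (3.55), and so it was with a pseudocount of 0.1 (-4.08 against 3.64). Differences of RNA level in bulk libraries do not separate fewer expressing cells from less RNA per cell.

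Within each experiment every one of these 7 differences kept its direction and its call. *SPRY1* differed by 3.47 in experiment 1 and 2.60 in experiment 2, and *EGR1* by -2.36 and -1.16. The interaction of the line with the experiment was -0.86 for *SPRY1* (limma adjusted p = 0.303) and 1.20 for *EGR1* (limma adjusted p = 0.232), and it was called for none of the 7 (2 at an unadjusted p under 0.05), against 0.025% of all genes tested.

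LOUCY in DMSO was set against untreated LOUCY to see what the solvent arm carried. *DUSP6* and *ETV5* fell, and none of the other 4 feedback genes tested were called. *DUSP6* fell by 1.33 on the log2 scale (95% confidence interval -1.67 to -1.0; limma adjusted p = 0.000561), the second smallest p of 11411 genes. *ETV5* fell by 0.87 (interval -1.15 to -0.58; limma adjusted p = 0.00718), the eighth smallest. Calls were rare in this comparison, 0.175% of genes tested, or 20 genes, of which 17 (0.149%) were lower and 3 (0.0263%) higher in DMSO. That total was 12 without DMSO experiment 1 replicate 1. It was 13 without DMSO experiment 1 replicate 2, without DMSO experiment 2 replicate 1 or without untreated experiment 2 replicate 3. It was 34 without the 3 libraries of steep GC slope, and *DUSP6* and *ETV5* were called in each of these cases. With the replicate number as a block, *DUSP6* stayed called and *ETV5* lost its call.

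For the other genes the intervals show what size of difference the data allow on log2(RPKM + 1), a compressed scale for *DUSP5* and *EGR1*. *SPRED2* had a log2 difference of -0.39 (interval -0.63 to -0.16; limma adjusted p = 0.169) although its DMSO and untreated ranges did not overlap. *SPRY1* differed by 0.10 (interval -0.16 to 0.35), *DUSP5* by 0.03 (interval -0.36 to 0.41) and *EGR1* by -0.34 (interval -0.78 to 0.09). In RPKM the *EGR1* mean in DMSO was 40.7% of the untreated mean, with overlapping ranges and few reads. Within experiment 1, *DUSP6* fell by 1.13 (limma adjusted p = 0.00557), and the *ETV5* difference was -0.57 (limma adjusted p = 0.0935). Within experiment 2 the differences were larger, -1.54 for *DUSP6* and -1.16 for *ETV5*, but neither was called (limma adjusted p = 0.423 for both), and 0 of all genes were called there, with 581 at an unadjusted p under 0.05. The labels give no time in culture for the untreated cells, so the solvent and the time or handling of the treated arm cannot be told apart.

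Each inhibitor was then set against DMSO, and the same 3 genes fell with both. *ETV5* fell most with JQ1, by 1.68 on the log2 scale (SE 0.149; limma adjusted p = 1.64e-07), to 22% of the DMSO mean in RPKM. *SPRY1* fell by 1.06 (SE 0.133; limma adjusted p = 8.95e-06), to 45.5%, and *DUSP6* by 0.93 (SE 0.173; limma adjusted p = 0.00054), to 46.8%. With I-BET151, *SPRY1* fell by 1.35 (SE 0.133; limma adjusted p = 5.59e-07), to 36.3%. *ETV5* fell by 1.29 (SE 0.149; limma adjusted p = 4.1e-06), to 33.2%, and *DUSP6* by 0.63 (SE 0.173; limma adjusted p = 0.0114), to 60.6%. The share of all 11411 genes called was 26% with JQ1 and 26.3% with I-BET151, and 15.9% were lower with each, against 3 of the 6 feedback genes tested. Higher calls made up 10.1% with JQ1 and 10.3% with I-BET151, and no feedback gene was among them. Both inhibitors share the DMSO libraries, as does the comparison of DMSO with untreated cells, so these results are not independent of each other.

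Of the feedback genes not called, *SPRED2* had log2 differences of -0.10 with JQ1 (interval -0.35 to 0.16) and 0.00 with I-BET151 (interval -0.25 to 0.26). *DUSP5* had 0.22 (interval -0.20 to 0.65) and 0.36 (interval -0.07 to 0.78). *EGR1* had 0.44 with JQ1 (interval -0.03 to 0.92; limma adjusted p = 0.166) and 0.52 with I-BET151 (interval 0.04 to 0.99; limma adjusted p = 0.102). In RPKM the *EGR1* means were 2.87 and 3.23 times the DMSO mean, with overlapping ranges and few reads. Without I-BET151 experiment 2 replicate 2, the I-BET151 library lowest in *EGR1*, this gene was called higher with I-BET151, by 0.75 (limma adjusted p = 0.0113). That call followed from dropping the lowest value of the higher group. No DMSO library reached 1 RPKM of *EGR1*, so it passed the filter through the other LOUCY groups. The call is therefore no support for a rise. *DUSP4* and *SPRED1* were below the filter in LOUCY and were not tested.

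Within experiments, *ETV5* fell by 1.82 and 1.53 with JQ1 and by 1.29 and 1.29 with I-BET151 (experiments 1 and 2), and *SPRY1* by 1.17 and 0.96 with JQ1 and by 1.33 and 1.38 with I-BET151, all called. *DUSP6* had differences of -0.91 and -0.95 with JQ1 and -0.50 and -0.76 with I-BET151, but in experiment 2 alone it was not called (limma adjusted p = 0.115 and 0.186). Experiment 2 alone called 392 genes with JQ1 and 454 with I-BET151, against 3455 and 2807 in experiment 1. The interaction with the experiment was called for 0 of the 6 feedback genes in each of the 4 comparisons within LOUCY in limma's test. Of all 11411 genes it was called for 0.00876% in DMSO against untreated cells and in each inhibitor against DMSO. The share was 0% in JQ1 against I-BET151. With calls this rare, 0 of 6 says nothing particular about the feedback genes. At an unadjusted p under 0.05 the interaction held 1 feedback gene for DMSO against untreated cells (*ETV5*) and 1 for JQ1 (*SPRED2*).

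JQ1 (a thienotriazolodiazepine) was tested beside I-BET151, which has a dimethylisoxazole on a quinoline core. They were used at different doses, 250 nM and 500 nM, so their values stand side by side. *ETV5* averaged 1.62 ± 0.325 RPKM with JQ1 and 2.44 ± 0.561 with I-BET151, *SPRY1* 9.52 ± 0.885 and 7.59 ± 0.743, and *DUSP6* 3.39 ± 0.978 and 4.39 ± 1.0 (SD, n = 4 each). The fitted difference of JQ1 from I-BET151 was -0.39 for *ETV5* (interval -0.70 to -0.07), 0.29 for *SPRY1* (interval 0.01 to 0.57) and -0.30 for *DUSP6* (interval -0.67 to 0.06). None of the 6 feedback genes was called in limma's test (adjusted p 0.964 to 0.982), while *ETV5* and *SPRY1* had an unadjusted p of 0.0185 and 0.0414. With limma, as with limma-voom on recovered reads, 0% of all genes were called, and limma gave 531 of 11411 at an unadjusted p under 0.05. A missed threshold does not show that the compounds act alike.

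**Figure D2:**
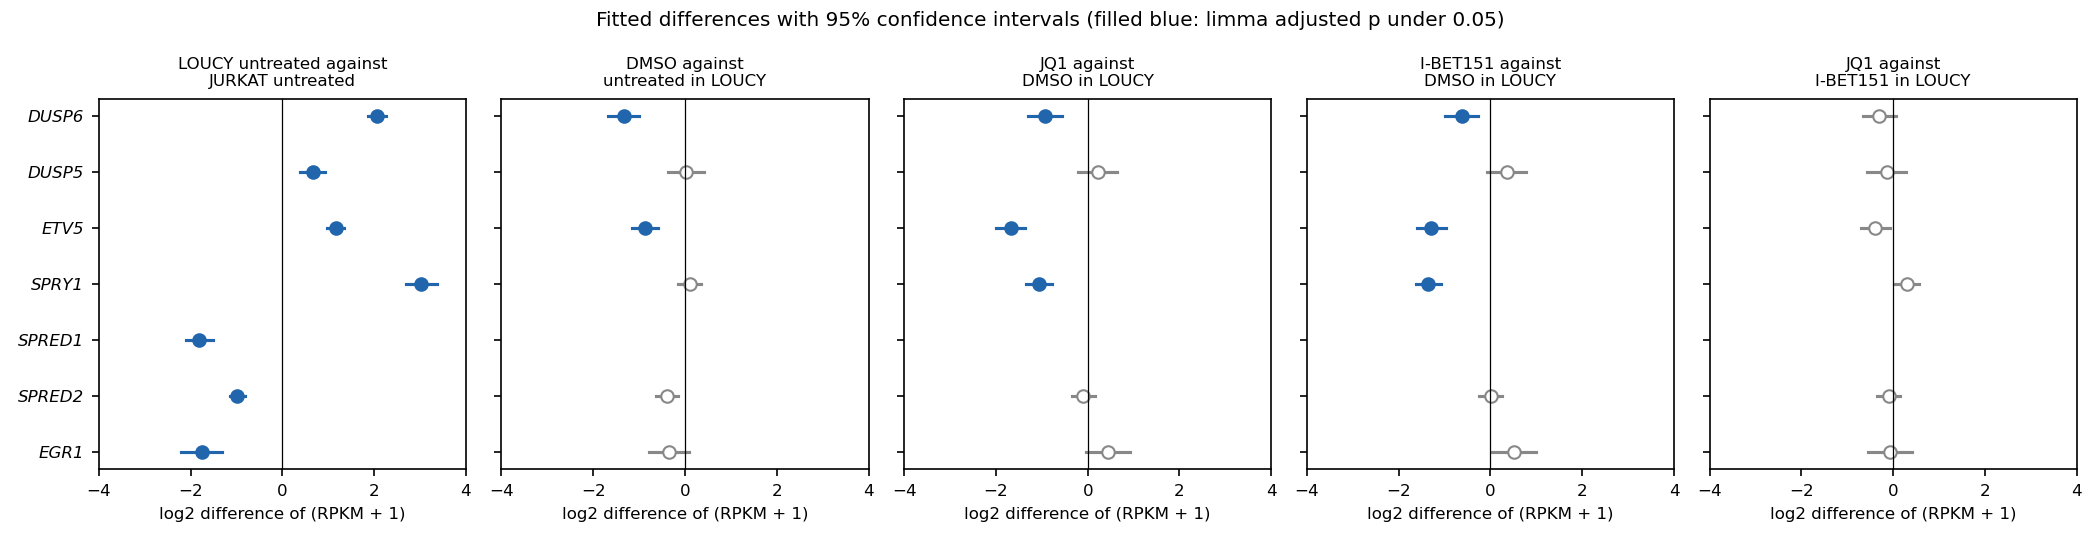
Fitted differences (x axis, log2 difference of RPKM + 1) of the 7 feedback genes tested, one panel per comparison, with 95% confidence intervals as horizontal lines. Filled blue points have a limma adjusted p under 0.05, and a gene without a point was below the filter. *DUSP6* and *ETV5* are left of 0 in the DMSO, JQ1 and I-BET151 panels, and *SPRY1* in the JQ1 and I-BET151 panels.

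The other genes of the pathway were read from 3 lists, the RAS to ERK cascade itself (27 genes), RAS inhibitors and other MAPK phosphatases (23 genes in the table) and other ERK-induced genes (33 genes in the table). In limma's test of DMSO against untreated cells, 0 of the 25 cascade genes tested and 0 of 17 inhibitors and phosphatases were called. Of 22 other ERK-induced genes, 1 was called. In the same order of lists, 1, 3 and 4 genes had an unadjusted p under 0.05, against 1100 of all 11411 genes tested. The gene called was *ZFP36L1*, which encodes an RNA-binding protein that promotes mRNA decay. It fell from 80.4 ± 8.73 RPKM (SD, n = 6) to 53.4 ± 2.48 (SD, n = 4), by 0.58 on the log2 scale (SE 0.0902; limma adjusted p = 0.00718). The median log2 difference of the 22 was -0.21, against -0.37 for the 6 feedback genes and -0.02 for all genes tested. With 0.175% of all genes called, counts of 0 in lists of this size say nothing particular about them.

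With the inhibitors, cascade genes were called in both directions, and *RASGRP2* and *MAPK3* had the smallest adjusted p among those that fell with either compound. With JQ1, 1 of 25 rose and 4 fell, with a median of -0.03. With I-BET151, 3 rose and 3 fell, with a median of 0.02. These counts are read against the 26% and 26.3% of all genes called with JQ1 and I-BET151, and the same holds for the lists that follow. *MAPK3*, which encodes ERK1, fell from 9.71 ± 2.24 RPKM in DMSO to 3.05 ± 0.637 with JQ1 and 4.09 ± 0.896 with I-BET151 (SD, n = 4 each; log2 differences -1.39 and -1.06; limma adjusted p = 4.84e-06 and 9.69e-05). *MAP2K1*, which encodes MEK1, rose from 10.5 ± 1.58 to 15.2 ± 3.11 RPKM with JQ1 and 21.0 ± 4.51 with I-BET151 (SD, n = 4 each; limma adjusted p = 0.0245 and 0.000173). *RASGRP2*, an exchange factor that acts mainly on the RAS relative RAP1, fell from 15.2 ± 3.85 to 2.01 ± 0.624 and 1.97 ± 0.873 RPKM (SD, n = 4 each), or by 2.41 and 2.45 on the log2 scale.

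Among the 17 inhibitors and phosphatases tested, JQ1 raised 3 and lowered 6, and I-BET151 raised 3 and lowered 5, where 10.1% and 10.3% of all genes were higher and 15.9% were lower with each. *DUSP14* rose from 26.4 ± 4.81 to 47.9 ± 2.63 RPKM with JQ1 and 48.8 ± 6.32 with I-BET151 (SD, n = 4 each; limma adjusted p = 0.000125 and 0.000106), and *DUSP22* rose by 0.53 and 0.51 on the log2 scale. Both phosphatases are known mainly for action outside the ERK branch. *DUSP2*, a nuclear phosphatase of ERK, fell from 5.43 ± 2.55 to 2.08 ± 0.458 and 1.88 ± 0.334 RPKM (SD, n = 4 each; limma adjusted p = 0.00117 and 0.000549). *DUSP10*, which acts mainly on p38 and JNK, fell by 0.45 with JQ1 and 0.38 with I-BET151, and *RASA3*, an inactivator of RAS and RAP1, by 0.53 and 0.67. The medians of this list were -0.18 with JQ1 and -0.09 with I-BET151, against -0.01 and 0.00 for all genes.

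The 22 other ERK-induced genes tested did not move one way. JQ1 raised 5 and lowered 2, with a median of 0.13, and I-BET151 raised 4 and lowered 3, with a median of 0.09, against 26% and 26.3% of all genes called. The median of the 6 feedback genes tested was -0.51 with JQ1 and -0.31 with I-BET151. *FOS*, an immediate early AP-1 gene, rose from 1.01 ± 0.378 RPKM in DMSO to 3.21 ± 0.655 with JQ1 and 3.87 ± 2.26 with I-BET151 (SD, n = 4 each; limma adjusted p = 0.00102 and 0.000393). *BTG2*, an antiproliferative gene, rose from 42.1 ± 5.02 to 97.7 ± 12.1 RPKM with JQ1 and 81.2 ± 4.37 with I-BET151 (SD, n = 4 each). *CD69*, an early activation marker of lymphocytes, rose with I-BET151 from 14.7 ± 1.74 to 32.7 ± 15.1 RPKM (SD, n = 4 each; limma adjusted p = 0.00225). With JQ1 *CD69* averaged 20.1 ± 1.84 RPKM (SD, n = 4; limma adjusted p = 0.173). A high library of experiment 2 raised the I-BET151 means of *CD69* (55.4 RPKM) and *FOS* (7.18 RPKM). Their I-BET151 medians were 25.3 and 3.11 RPKM. *EMP1*, a membrane protein gene, fell from 12.4 ± 0.942 to 3.26 ± 0.529 and 3.63 ± 0.541 RPKM, and *TNFAIP3*, an inhibitor of NF-kappaB signalling, fell by 1.13 and 0.93 on the log2 scale.

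Between the untreated lines, all 3 lists held genes called in both directions, where 35.5% of all genes were higher and 37.5% lower in LOUCY. The cascade had 10 of 26 tested genes higher in LOUCY and 5 lower, with a median of 0.12. *RASGRP1*, the RAS activator downstream of the T-cell receptor, was lower in LOUCY, at 5.12 ± 1.64 against 21.4 ± 3.91 RPKM (SD, n = 6 each), and *GAB2* was lower by 0.76 on the log2 scale. *ELK3*, an ETS factor that ERK phosphorylates, was higher in LOUCY by 2.24 and the adaptor *SHC1* by 1.21. Of 18 inhibitors and phosphatases, 10 were higher and 4 lower, with *DUSP10* at 34.2 ± 3.82 against 3.23 ± 1.21 RPKM (SD, n = 6 each) and *DAB2IP* higher by 2.06, while *DUSP16* and *DUSP3* were lower (-0.98 and -0.94). Of 23 other ERK-induced genes, 16 were higher and 4 lower. The smallest adjusted p among them belonged to *ZFP36L1* (3.41) and *FOSL2* (2.49) on the higher side. On the lower side it belonged to *ID1* (-4.16) and *KLF2* (-1.63). *EMP1* (3.89) and *BTG2* (3.50) had larger differences than *ZFP36L1*. Of the genes named here, *DAB2IP*, *FOSL2* and *EMP1* passed the filter through LOUCY alone, and *DUSP16*, *GAB2* and *KLF2* through JURKAT alone. Their differences were in part fixed by the filter, and the list counts include such genes, so these counts are no support for a difference.

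**Figure D3:**
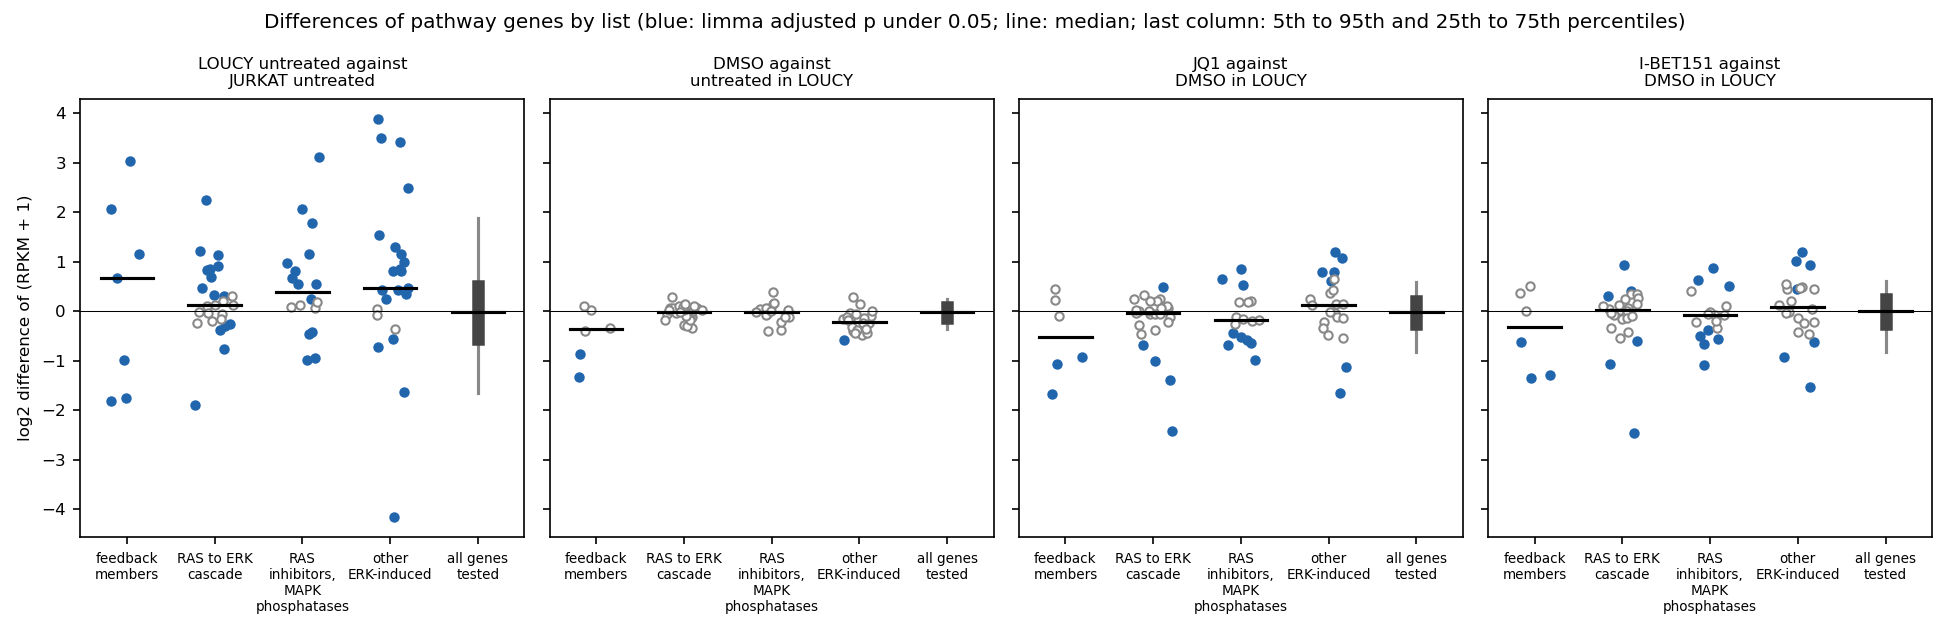
Log2 differences of RPKM + 1 (y axis) for each tested gene of the feedback set and of the 3 pathway lists (x axis), one panel per comparison, with blue for a limma adjusted p under 0.05, black lines for list medians, and a last column for the 5th to 95th and 25th to 75th percentiles of all genes tested. In the DMSO panel the called points are *DUSP6*, *ETV5* and *ZFP36L1*.

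Among the feedback genes, *ETV5* had the pattern most like that of *DUSP6* over the 18 LOUCY libraries, with a Pearson r of 0.93 on log2(RPKM + 1). For *SPRED2* r was 0.77, for *SPRY1* 0.70, for *EGR1* 0.01 and for *DUSP5* -0.39. Among 11410 genes ordered from the highest r, *ETV5* had rank 7, *SPRED2* rank 802 and *SPRY1* rank 1253. *EGR1* and *DUSP5* had ranks 5980 and 8956, so an r like that of *SPRED2* or *SPRY1* was common. The 18 libraries come from 4 groups and 2 experiments, so r is a description of shared group levels and carries no p. Within untreated LOUCY, *DUSP6* and *ETV5* were higher in all 3 libraries of experiment 2 than in those of experiment 1, and *SPRY1* was lower in all 3. Outside the set, the 5 genes with the highest r to *DUSP6* were *C10orf10* (0.94), *PPP1R1C* (0.94), *LITAF* (0.94), the chemokine receptor gene *CCR1* (0.93) and the ligand gene *WNT3* (0.93). *C10orf10* averaged 4.22 ± 0.272 RPKM in untreated LOUCY (SD, n = 6), 1.65 ± 0.203 in DMSO, 1.03 ± 0.212 with JQ1 and 0.651 ± 0.205 with I-BET151 (SD, n = 4 each). *CCR1* averaged 3.66 ± 0.718, 2.2 ± 0.345, 0.439 ± 0.12 and 0.69 ± 0.234 RPKM in the same order of groups. *LITAF* was the most abundant of the 5, at 19.2 ± 1.54 RPKM in untreated LOUCY and 9.02 ± 0.868 with JQ1.

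**Figure D4:**
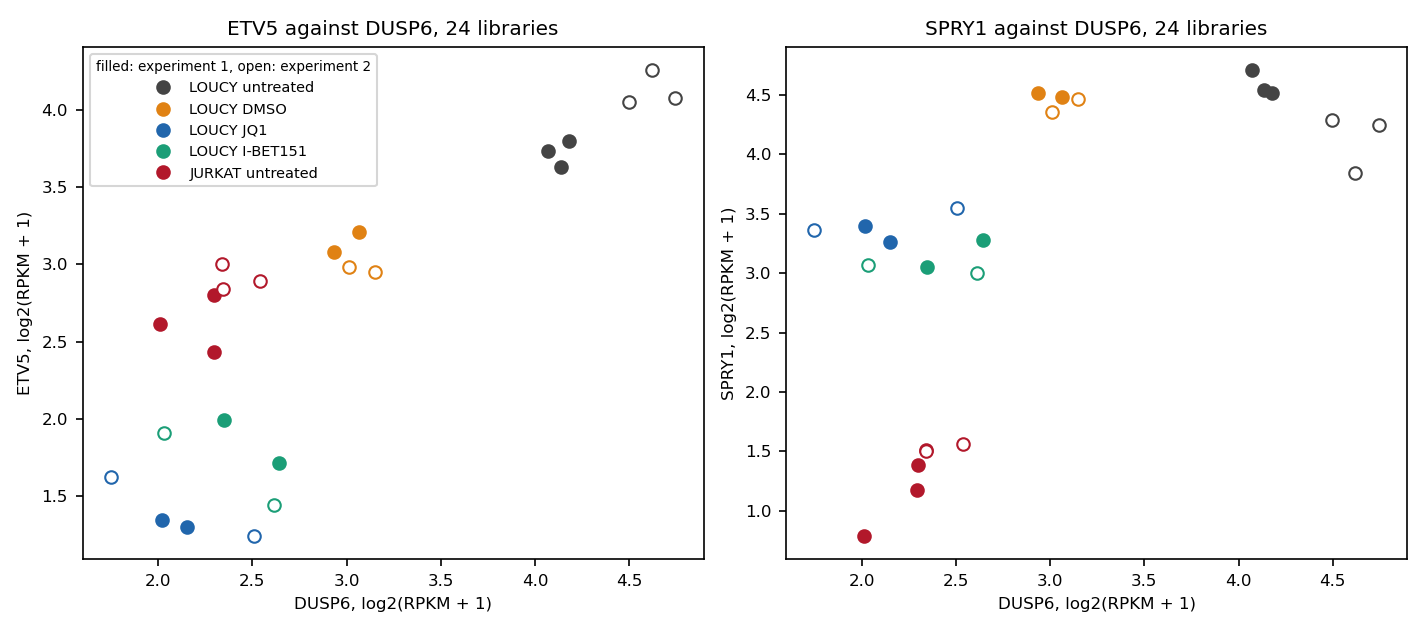
*ETV5* (left) and *SPRY1* (right) against *DUSP6* in the 24 libraries, all axes in log2(RPKM + 1), coloured by group, with filled points for experiment 1 and open points for experiment 2. DMSO libraries lie between untreated and inhibitor libraries on the *DUSP6* and *ETV5* axes, and level with untreated libraries on the *SPRY1* axis.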

How the data were processed

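The deposited table holds RPKM values for 15862 genes in 24 libraries, which the authors made with STAR 2.5.1b, Subread 1.4.5-p1 with featureCounts and edgeR 3.10.5 on hg38, per the submitters' processing notes. The annotation and settings, which fix the gene lengths, were not given in the sources used here. Per the labels' protocols, libraries were made with Smart-seq2 and Nextera XT. Each gene's RPKM steps gave whole reads (100% of genes, tolerance 0.01 reads), which set the depth and served an alternative fit. Low genes are measured least precisely. The 18 replicate pairs within experiments, treated or untreated, all differed by more than counting error (chi-square per degree of freedom 1.69 to 54.6). Each library was counted once, but this scatter may be technical and does not show that the libraries were separate cultures.

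The analysis used log2(RPKM + 1) and kept a gene when 4 or more libraries of the fit reached 1 RPKM. Group and experiment were fitted with limma 3.58.1 (R 4.3.3), with empirical Bayes moderation, a mean-variance trend and two-sided tests. The untreated lines were compared over 12 libraries, and the other comparisons shared a fit of 18 LOUCY libraries. On simulated data for DMSO against untreated cells (11241 genes), 93.9% of genes changed by 1 on the log2 scale were recovered. For JQ1 against I-BET151 the share was 83.8%. The simulated libraries were independent, with the same scatter for all genes and no GC slope or experiment effect. These shares may therefore overstate what the real libraries can recover. The feedback genes, the pathway lists and the alternatives were chosen with earlier results of these data known. From each list, up to 2 risen and 2 fallen genes with the smallest adjusted p were named per comparison, with all 8 feedback genes and the 5 genes most like *DUSP6*. A gene that this rule names is not reported here. The line differences of *EMP1* and *BTG2*, and values of a gene under the compound for which the rule did not name it, were added after their values were seen. Motifs were searched on both strands of RefSeq promoter windows.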

Additional observations from a re-analysis of the deposited data

Results flagged for a closer look

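In 2 of 40 sets of 1 feedback gene in 1 group, a single library stood far from the others (Dixon's ratio, at which chance marks about 1 in 20 sets). *SPRED1* reached 4.98 RPKM in JURKAT untreated experiment 1 replicate 2, while the other 5 JURKAT libraries lay between 1.97 and 2.67 RPKM. *SPRED2* reached 3.85 RPKM in I-BET151 experiment 2 replicate 2, while the other 3 I-BET151 libraries lay between 2.67 and 2.82 RPKM. Leaving out either library changed no call of that gene.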

How the results depend on the processing

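Of 653 values of single feedback genes under other settings, 646 kept their call, 6 lost it, 1 gained it and 0 reversed. Losses were *DUSP6* and *ETV5* in DMSO (experiment 2 alone; *ETV5* also in experiment 1 alone and with the replicate block) and *DUSP6* with JQ1 and I-BET151 (experiment 2 alone). The 2 feedback genes called in DMSO became 1 in experiment 1 alone and 0 in experiment 2 alone. The 20 genes of all called there became 13 with no experiment term, 57 in experiment 1 alone, 0 in experiment 2 alone (limma), 12 with only the compared groups in the fit, 34 without the 3 libraries of steep GC slope and 7 with limma-voom on recovered reads. Leaving out 1 library gave 12 to 26. With JQ1, 2971 genes became 392 in experiment 2 alone. With I-BET151, 2999 became 454 in experiment 2 alone and 1622 with only the compared groups in the fit. JQ1 against I-BET151 went from 0 genes to 1 in experiment 1 alone, with only the compared groups in the fit, or when the 3 GC-steep libraries were left out. For these changes the cause was not tested, beyond the smaller number of libraries in the fits that leave some out. Limma-voom, and keeping the genes of the full fit where libraries were left out, were chosen after seeing the data.

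With the replicate number as a block, the 2 feedback genes called in DMSO became 1, as *ETV5* lost its call (-0.82, limma adjusted p = 0.0839). The 20 genes of all became 4. No other call of a feedback gene changed with the block. Whether same-numbered libraries pair was not settled. The r of their deviations exceeded 0.1 in 15 of 42 pairs (-0.581 to 0.684). Between treated groups, with 2 libraries each per experiment, both pairs give the same r, so the count cannot decide this. DMSO and I-BET151 in experiment 2 had an r of 0.684, and replicate 1 of each had a steep GC slope.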
